A study of Mus musculus with 56 samples.

Results

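The kidney of nighttime-fed mice was followed over the first 4 h of light, when the night's food had been taken away. The comparison set the 4 kidneys taken at zeitgeber time 4 (ZT4, 4 h after lights on) under nighttime-restricted feeding (NRF) against the 8 NRF kidneys taken at lights on, 4 at ZT0 and 4 at ZT24 (together ZT0/24). These 12 libraries were chosen by regimen and time alone, out of 56 libraries in 14 groups. Poly(A) RNA of whole kidney was sequenced from C57BL/6J female mice of 9 weeks, which had lived in 12 h of light and 12 h of dark and had been held for 7 days on NRF, with food at night, or on daytime-restricted feeding (DRF), with food by day. By their labels the groups differed only in regimen and time, each library stood for 1 mouse, and the hours at which food was given and removed are not given in the sources used here. The same 4 h of light with food present, DRF ZT4 against DRF ZT0/24 (12 libraries), and the 4 h after lights off without food, DRF ZT16 against DRF ZT12 (8 libraries), served for comparison.

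Most cells keep time with a transcriptional loop in which BMAL1 (encoded by Arntl) with CLOCK or NPAS2 switches on genes for PER, CRY and REV-ERB proteins, which in turn repress the activators or their genes. In the kidney this loop runs alongside signals from meals: insulin after food restrains FOXO transcription factors and favours SREBP-driven sterol and fatty acid synthesis, while fatty acids released in fasting activate PPARA and fat burning. The proximal tubule, which makes up most of the renal cortex, depends on fatty acid oxidation for its energy, makes glucose, and activates and degrades vitamin D.

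The labelled tissue carried its defining markers. The summed level of 8 proximal tubule markers, most of it Kap, was 37890 to 89596 TPM (transcripts per M, reads scaled for gene length and library size) at ZT4, 77315 to 101080 at ZT0 and 62053 to 110814 at ZT24, and all 8 markers of loop and collecting duct and all 6 glomerular markers were above 1 TPM. Of 10 adrenal markers 9 were below 1 TPM or had no value. The reads of recovered genes were 24.7 to 26.4 M per library. Adipose markers varied from 0.6 to 760 TPM in sum among the ZT4 libraries and passed 100 TPM in NRF ZT4 mouse 4 (760 TPM), ZT0 mouse 1 (655.1 TPM) and ZT24 mouse 2 (220.7 TPM). Summed haemoglobin and other blood markers were 3453 to 6996 TPM at ZT4, 1618 to 2524 TPM at ZT0 and 2925 to 9130 TPM at ZT24. In whole kidney, fewer cells of a type and less RNA per cell cannot be told apart. The p-values measure the spread between mice within groups, pooled over all 14 groups of the series.

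Over the first 4 h of light without food, REV-ERB genes, PAR bZIP factors, 9 of 20 insulin and FOXO responsive genes and 10 of 26 PPARA genes rose, while the clock repressor Cry1, the activator Arntl, 15 of 29 sterol synthesis genes and 15 of 24 ER chaperone genes fell. Changes are differences of log2(TPM + 1) ± standard error (SE) from a limma fit of all 14 groups, and a gene was called at a Benjamini-Hochberg adjusted p under 0.05. Of 13448 genes tested, 1464 rose (10.9%) and 804 fell (5.98%), so that 64.6% of the calls were rises. With values rescaled by the median of ratios, 1299 rose and 1583 fell, a share of rises of 45.1%, and in the deposited values as they stand 1024 rose and 1494 fell (40.7%). The median-of-ratios scaling moved the median change of all genes from 0.03 to -0.01. Without ZT4 mouse 3, 823 genes rose and 713 fell (53.6% rises), and without ZT4 mouse 2, 1857 rose and 542 fell (77.4%). The 4 ZT4 libraries lay wholly above the 8 ZT0/24 libraries in 680 genes (5.06%) and wholly below them in 371 (2.76%). A change of at least 1.5-fold was found in 149 genes that rose and 83 that fell. Against ZT24 alone, 925 genes rose (6.88%) and 530 fell (3.94%), and 1354 of the 2268 calls were called in the same direction. Against ZT0 alone, 1226 genes rose (9.12%) and 698 fell (5.19%). ZT24 and ZT0, the same clock time a day apart, differed in 98 genes (0.729%).

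Among genes with a mean of at least 10 TPM, no overlap and a call against ZT24 alone as well, the largest rises were those of Cyp24a1 and Dbp, the latter described with the clock. They differed by less than their standard errors, and Dbp changed more against ZT24 alone (3.23 against 2.73) and without the 3 libraries rich in adipose markers (3.13 against 2.80). Cyp24a1 (chr2:170482708-170497145 in GRCm38.p6, the build of all positions here) encodes the hydroxylase that degrades active vitamin D. Its levels were 243, 119, 150.0 and 158 TPM in the 4 ZT4 mice, against a lowest of 3.62, a median of 19.5 and a highest of 41.8 TPM at ZT0/24. All 4 mice lay above the 8, and the log2 change was 3.16 ± 0.50 (n = 4 and 8, limma adjusted p 7.33e-06). Igfbp1 (chr11:7197782-7202546), a secreted binder of insulin-like growth factors that insulin represses, was 82.9, 92.5, 113 and 64.9 TPM at ZT4, against a lowest of 13.4, a median of 22 and a highest of 37.1 TPM. The groups did not overlap, and Igfbp1 changed by 1.90 ± 0.19 (adjusted p 3.47e-10).

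Angptl4 (chr17:33773750-33781830), an inhibitor of lipoprotein lipase and a classical PPAR target, was 12.4, 10.6, 49.2 and 75.5 TPM at ZT4, against a lowest of 2.996, a median of 4.66 and a highest of 8.87 TPM. The ZT4 mice split into mice 1 and 2 just above the ZT0/24 range and mice 3 and 4 far above it, with a change of 2.25 ± 0.36 (adjusted p 1.17e-05). Klf11 (chr12:24651274-24662789) and Klf10 (chr15:38291463-38300706), zinc finger factors first described as induced by TGF-beta, were also higher in mice 3 and 4 than in mice 1 and 2. Klf11 was 16, 13.6, 30.9 and 25.5 TPM at ZT4 against a lowest of 4.19, a median of 5.1 and a highest of 7.11 TPM, and Klf10 was 16.6, 18.9, 45.7 and 38.8 TPM against a lowest of 6.9, a median of 8.89 and a highest of 11.8 TPM. Neither gene overlapped between groups, and their changes were 1.81 ± 0.21 and 1.48 ± 0.26. The split was not particular to these genes. Along the axis of largest variance over all genes tested (29.2%), mice 1 and 2 lay at -11.2 and -9.30. Mice 3 and 4 lay at 21.5 and 34.3, and ZT0 mouse 1 lay at 18.9. Mouse 4 was the ZT4 library with the most adipose marker RNA. Without the 3 libraries rich in adipose markers the changes were 1.76 for Angptl4, 1.66 for Klf11 and 1.30 for Klf10, each still with an adjusted p under 0.05.

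The other genes of the 10 largest rises among those with a mean of at least 10 TPM were the clock genes Dbp, Nr1d1 and Nr1d2, the FOXO target Depp1 and Gm31371 (change 1.56 ± 0.15), a predicted gene. Of the largest falls, Cry1, Nfil3 and Arntl belong to the clock and G6pc to glucose production, both described below. Ppard (chr17:28232700-28301474), the nuclear receptor PPAR-delta, fell from a ZT0/24 mean of 74.4 ± 17.8 TPM (SD, n = 8) to 28.8 ± 7.75 TPM (SD, n = 4). Tfec, a basic helix-loop-helix factor of the MITF family, changed by -1.02 ± 0.10. Lonrf3 changed by -1.12 ± 0.11, Gm38481 by -1.23 ± 0.24, and Nat8f6, a member of the NAT8 acetyltransferase family, by -0.999 ± 0.21. Reads of NAT8 family members can be hard to assign, since the genes are near-identical copies. The plot of 19 of these genes gives their levels by library. Absence of overlap was a condition for choosing them, so their separation is no result.

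**Figure D1:**
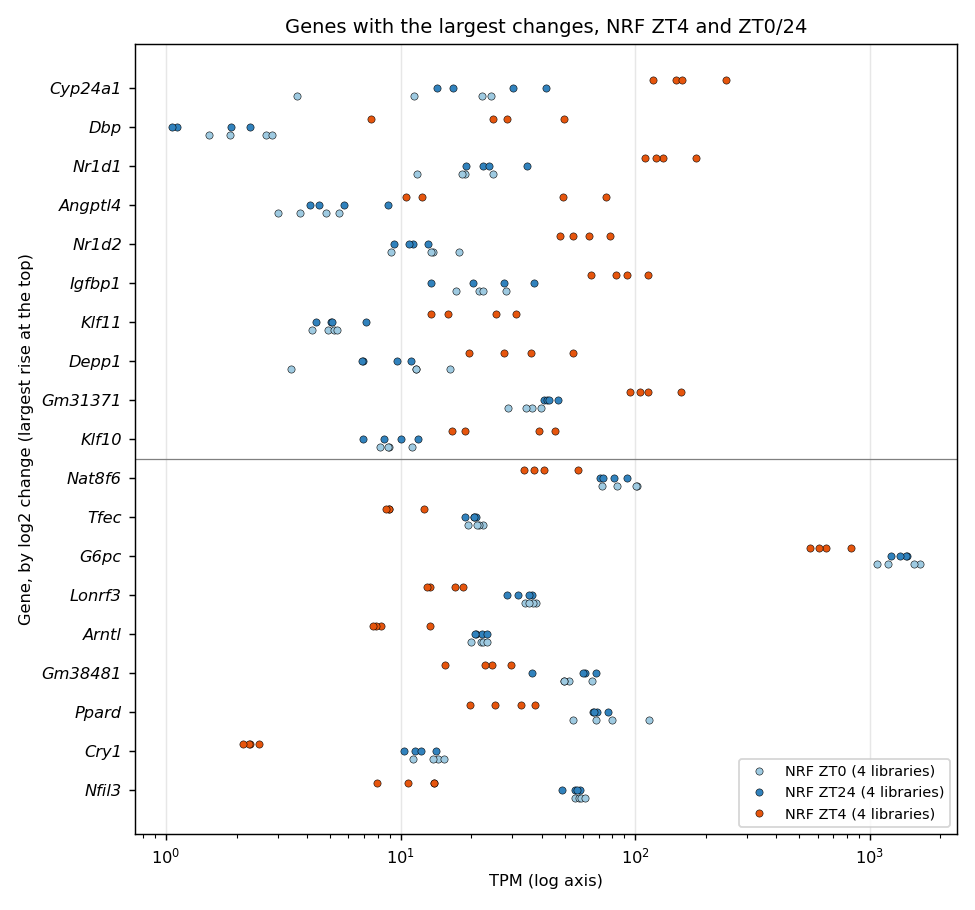
Level in TPM (log axis) of the 10 genes with the largest rises, above the line, and 9 of the 10 with the largest falls, below it, in each of the 12 libraries; each point is 1 mouse, coloured by time. In all 19 genes the 4 ZT4 points lie outside the range of the 8 ZT0 and ZT24 points, as the choice of genes required, and Angptl4 (10.6 to 75.5 TPM) and Dbp (7.5 to 49.5 TPM) spread most widely at ZT4.

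Of 19 clock genes, 8 rose, 7 fell and 4 were not called, against 10.9% and 5.98% of all genes. The repressors of the REV-ERB arm rose. Nr1d1 (chr11:98767932-98775333), encoding REV-ERB-alpha, was 109.8, 131, 181 and 122 TPM at ZT4 against a lowest of 11.7, a median of 20.8 and a highest of 34.5 TPM at ZT0/24. Every ZT4 mouse was above every ZT0/24 mouse, and the change was 2.62 ± 0.22 (adjusted p 6.36e-12). Nr1d2 (chr14:18204054-18239127), encoding REV-ERB-beta, was 54.5, 48, 78.1 and 63.3 TPM against a lowest of 9.13, a median of 12.2 and a highest of 17.7 TPM, a change of 2.22 ± 0.13.

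The activators of the D-box, a promoter element read by PAR bZIP factors, also rose. Dbp (chr7:45705088-45710203) was 7.5, 28.5, 49.5 and 24.7 TPM at ZT4 and had a lowest of 1.06, a median of 1.89 and a highest of 2.84 TPM at ZT0/24. Mouse 1 was well below the other ZT4 mice but above all 8 of the reference, and Dbp changed by 3.07 ± 0.28 (adjusted p 2.73e-11). Its relatives Tef (0.92 ± 0.10) and Hlf (0.36 ± 0.11) rose by less. Hlf was no longer called against ZT0 alone (adjusted p 0.117) or without ZT4 mouse 1 (0.0982) or mouse 3 (0.057). Nfil3 (chr13:52967209-52981073), which represses through the same element, fell to 14, 10.7, 7.94 and 13.9 TPM from a lowest of 48.9, a median of 56.8 and a highest of 61 TPM, with no overlap and a change of -2.21 ± 0.16 (adjusted p 6.58e-14).

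Among the activators of the loop, Arntl (chr7:113207465-113314126) was 13.3, 8.22, 7.87 and 7.61 TPM at ZT4 against a lowest of 19.9, a median of 22.1 and a highest of 23.3 TPM. Mouse 1 was the highest of the 4 but still below all 8, and Arntl changed by -1.19 ± 0.15. Npas2 changed by -0.76 ± 0.16 and Clock by -0.42 ± 0.10. Rora, whose product activates where REV-ERB proteins repress, rose (0.42 ± 0.09).

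The PER and CRY repressors did not move as a group. Cry1 (chr10:85131700-85185064) was 2.27, 2.25, 2.12 and 2.5 TPM in the ZT4 mice, a narrow range, against a lowest of 10.4, a median of 13 and a highest of 15.3 TPM. This was its lowest group mean of the NRF day (2.29 TPM at ZT4), and the change was -2.07 ± 0.17 (adjusted p 5.00e-12). Per2 was 2.62, 3.13, 4.26 and 4.33 TPM against a lowest of 6.15, a median of 6.94 and a highest of 9.68 TPM, also without overlap and with its lowest group mean at ZT4, a change of -0.87 ± 0.15. Cry2 (0.59 ± 0.11) and Per3 (0.81 ± 0.18) rose. The genes not called were Per1 (0.21 ± 0.25), Ciart (0.20 ± 0.17), Bhlhe40 (0.30 ± 0.14) and Bhlhe41 (0.24 ± 0.15), all repressors of the loop. Per1 was 5.4, 4.55, 9.68 and 20.1 TPM at ZT4, a wide spread that covered the ZT0/24 range.

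Promoter sequences from RefSeq (GRCm38.p6), the 250 bases before each transcription start, were searched on both strands for the E-box CACGTG bound by BMAL1 dimers, the D-box TTATGTAA and the element TAGGTCA bound by REV-ERB and ROR proteins. The E-box was found in 5 of the 16 clock genes with a promoter entry (Bhlhe41, Ciart, Cry1, Per1 and Tef) and in 6.02% of all 32851 promoters. The D-box was found in Per3 and in 0.819% of promoters, and the REV-ERB/ROR element in Nfil3 and in 2.23%. G6pc, which encodes the glucose-releasing phosphatase and also fell, held the last element too. A match is a description of the letters and not evidence of binding. The stretches are shown so that the elements can be read beside the levels, with the matched letters in capitals, and an element on the opposite strand reads as its reverse complement.
Per3 (chr4:151044796-151044890, minus strand): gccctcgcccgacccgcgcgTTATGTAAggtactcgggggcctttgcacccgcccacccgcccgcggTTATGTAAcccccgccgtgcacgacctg
Nfil3 (chr13:52981040-52981071, minus strand): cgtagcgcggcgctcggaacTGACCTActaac
G6pc (chr11:101367642-101367688, plus strand): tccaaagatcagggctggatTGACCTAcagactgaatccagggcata
Cry1 (chr10:85185089-85185134, minus strand): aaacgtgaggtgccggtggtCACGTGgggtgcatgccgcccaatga
Ciart (chr3:95882247-95882364, minus strand): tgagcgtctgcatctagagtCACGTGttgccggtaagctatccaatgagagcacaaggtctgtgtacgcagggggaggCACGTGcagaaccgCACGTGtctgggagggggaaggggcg
Per3, with 2 D-boxes, rose, and Nfil3 and G6pc, with the REV-ERB/ROR element, fell. Members of other lists held these elements too, Sec61b the D-box and Nop58, Plin2, Trim30a, Dhcr7, Hnrnph1 and Acadvl the REV-ERB/ROR element. A link between element and direction was not tested. Cry1 and Ciart both hold the E-box, and Cry1 fell while Ciart was not called.

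In the same hours of light with food, 10 of the 19 clock genes were called in the same direction as under NRF and 2 in the opposite one. Of all 13448 genes tested, 39 were called in the same direction. Another 868 rose under NRF and fell under DRF, and 542 did the reverse. Between ZT0/24 and ZT4 under DRF, 11 clock genes rose and 5 fell, against 16.4% and 14.9% of all genes. The change differed between regimens in 13 of the 19 genes (37.5% of all genes). Arntl changed by -1.08 ± 0.15 under DRF, and the difference of -0.10 ± 0.21 between regimens was not called (adjusted p 0.744). No difference was called for Dbp (0.77 ± 0.39, adjusted p 0.117), Tef (0.06 ± 0.15), Cry2 (-0.07 ± 0.16), Hlf (-0.13 ± 0.15) or Bhlhe41 (-0.39 ± 0.21) either. In contrast, Per2 rose by 2.15 ± 0.15 under DRF, a difference of -3.02 ± 0.22 (adjusted p 4.64e-15). Rora changed by -0.61 ± 0.09 under DRF where it rose under NRF. Cry1 had a log2 difference of 0.23 ± 0.17 under DRF, which was not called, and differed by -2.30 ± 0.24 from NRF. Nr1d1 and Nr1d2 rose under both regimens, by 1.76 ± 0.31 and 1.47 ± 0.19 more under NRF. At lights on Nr1d1 was 18.4 ± 5.36 TPM at NRF ZT0 and 45.6 ± 12.9 TPM at DRF ZT0 (SD, n = 4 each).

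In the 4 h after lights off without food, 5 clock genes rose and 3 fell (5.18% and 8.4% of all genes). The directions were opposite to those of NRF ZT4 for Dbp (-1.78 ± 0.32), Arntl (1.35 ± 0.17), Nfil3 (0.91 ± 0.19), Npas2 (1.14 ± 0.18) and Hlf (-0.43 ± 0.12), all called. Rora rose in both windows (0.67 ± 0.10 in the dark, adjusted p 1.01e-05). The difference between the NRF light window and the DRF dark window was called in 13 clock genes, against 16.4% of all genes. It was largest for Dbp (4.85 ± 0.42, adjusted p 1.03e-11).

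**Figure D2:**
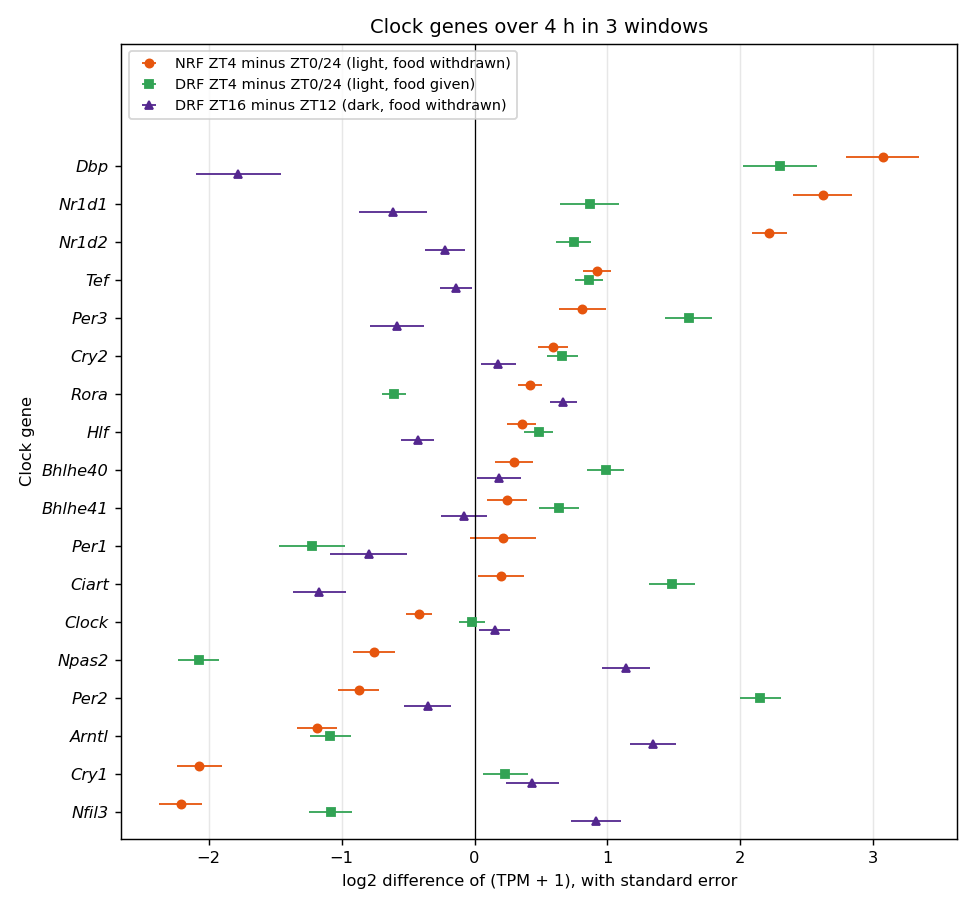
Log2 difference of (TPM + 1) with its standard error for 18 clock genes in 3 windows of 4 h, ordered by the NRF change; circles are light without food (NRF), squares light with food (DRF) and triangles dark without food (DRF). Circles and squares lie on the same side of 0 for Dbp, Nr1d1, Nr1d2, Tef, Cry2, Npas2, Arntl and Nfil3 and on opposite sides for Per2, Rora, Per1 and Cry1, while the triangles of Dbp, Arntl and Nfil3 lie opposite to their circles.

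All calls among genes of fatty acid use were rises, and of all genes 10.9% rose and 5.98% fell. Of 26 PPARA targets and fatty acid oxidation genes tested, 10 rose and none fell (6 rose against ZT24 alone), with a median change of 0.19 against 0.03 for all genes. Besides Angptl4, Ppara itself, the receptor, was 196, 109.7, 162 and 146 TPM at ZT4 against a lowest of 76.1, a median of 89.7 and a highest of 104.6 TPM (0.73 ± 0.13). Cpt1a (chr19:3322334-3385733), which admits fatty acids to the mitochondrion, was 413, 280.3, 431 and 420.3 TPM against a lowest of 221, a median of 245 and a highest of 276 TPM. The groups did not overlap in either gene, and Cpt1a changed by 0.62 ± 0.09 (adjusted p 6.80e-07). Acot2, a mitochondrial thioesterase, changed by 0.54 ± 0.11. Pdk4 (chr6:5483351-5496309), the kinase that shuts off pyruvate dehydrogenase, was 47.9, 31.5, 111 and 133 TPM against a lowest of 20.8, a median of 23.7 and a highest of 37.7 TPM. Mouse 2 lay within the ZT0/24 range and mice 3 and 4 far above it, and the change was 1.45 ± 0.29 (adjusted p 2.68e-04). Without the adipose-rich libraries it was 1.10 (adjusted p 0.0189). The other 16 members were not called, among them Acadm (-0.08) and Hadha (0.13).

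Of 20 insulin and FOXO responsive genes, 9 rose and none fell, against 10.9% and 5.98% of all genes. Against ZT24 alone 7 of them rose, and the median change against ZT0/24 was 0.19. Depp1 (chr6:116650609-116652794), a FOXO-induced regulator of autophagy, was 19.5, 27.5, 54.5 and 35.9 TPM at ZT4 against a lowest of 3.41, a median of 10.4 and a highest of 16.3 TPM. All 4 mice were above the 8, and Depp1 changed by 1.73 ± 0.42 (adjusted p 0.00279). Txnip (chr3:96557957-96561883), an inhibitor of thioredoxin that limits glucose uptake, was 578, 501, 836 and 665 TPM against a lowest of 237, a median of 307 and a highest of 343 TPM, without overlap (1.10 ± 0.18). Fbxo32, a ubiquitin ligase subunit of muscle atrophy, changed by 0.92 ± 0.14, and Irs2, the insulin receptor substrate, by 0.68. The FOXO genes were not called (Foxo1 0.08, Foxo3 0.22). Leaving out the adipose-rich libraries gave 7 rises in the PPARA list and 6 in the insulin list. In that fit 1009 of all 13448 genes rose and 520 fell, against 1464 and 804 in the main fit.

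All calls among genes of sterol and fatty acid synthesis were falls, and of all genes 5.98% fell. Of 29 tested, 15 fell and none rose (14 against ZT24 alone), with a median of -0.33. Msmo1 (chr8:64718139-64733792), a sterol oxidase, was 25.3, 23.2, 26.3 and 18.9 TPM at ZT4 against a lowest of 36.1, a median of 46.7 and a highest of 60.5 TPM at ZT0/24. The groups did not overlap, and Msmo1 changed by -0.95 ± 0.12 (adjusted p 1.25e-07). The desaturase gene Scd2 was 102, 94.7, 92.9 and 90.4 TPM against a lowest of 133, a median of 179 and a highest of 226 TPM, also without overlap (-0.89 ± 0.16, adjusted p 5.41e-05). Srebf1, the SREBP gene that insulin induces, changed by -0.73, whereas Srebf2 (-0.08), Scd1 (-0.03) and Elovl6 (-0.01) were not called.

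**Figure D3:**
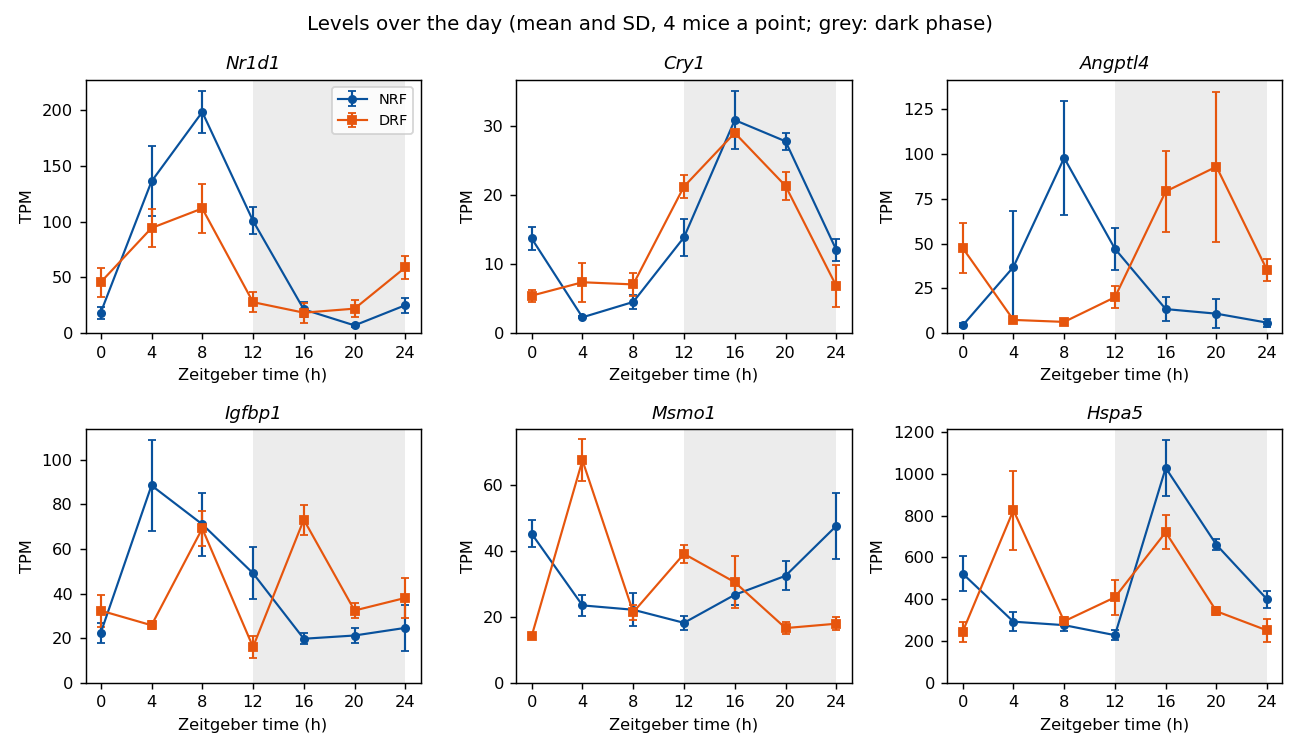
Level in TPM against zeitgeber time in hours for 6 genes under NRF (circles) and DRF (squares); points are means of 4 mice, bars are SD and grey marks the dark phase. Cry1 and Igfbp1 reach their lowest and highest NRF means at ZT4, Nr1d1 and Angptl4 go on rising to 198 and 97.8 TPM at ZT8, and Msmo1 and Hspa5 move in opposite directions under the 2 regimens between ZT0 and ZT4.

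All calls among chaperones were falls, and of all genes 5.98% fell. Of 24 endoplasmic reticulum (ER) chaperone and unfolded protein response genes, 15 fell and none rose, with a median of -0.30. Against ZT24 alone 8 fell and 1 rose, and without the adipose-rich libraries 12 fell. Hspa5 (chr2:34771970-34777547), the ER chaperone BiP, was 235, 320.1, 334 and 281 TPM at ZT4 against a lowest of 371, a median of 449 and a highest of 597 TPM, without overlap and with a change of -0.64 ± 0.13 (adjusted p 2.81e-04). Sdf2l1, a partner of BiP, was 21.1, 29.3, 29.3 and 22.8 TPM against a lowest of 42, a median of 48.3 and a highest of 56.1 TPM (-0.89 ± 0.16). Manf, a secreted ER stress protein, changed by -0.63 ± 0.14, and Creld2, another, by -0.57 ± 0.12. The stress factor Ddit3 (-0.03) and the chaperone Dnajb9 (0.06) were not called.

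The ER stress element, CCAAT and CCACG with 9 bases between them, read by ATF6 with NF-Y, was found in 9 of the 21 members with a promoter entry and in 0.113% of all promoters. These were Calr, Canx, Creld2, Derl3, Dnajc3, Hsp90b1, Hspa5, Pdia6 and Syvn1, of which all but Canx fell. A single spacing on both strands was searched, so other forms of the element would not be counted. The stretches are shown with the fixed letters in capitals. In the whole list 15 of 24 genes fell, so some without a match fell too, and all 24 rose under DRF. A link between the element and the fall was not tested. A stretch with CGTGG ahead of ATTGG holds the element on the opposite strand.
Hspa5 (chr2:34772005-34772063, plus strand): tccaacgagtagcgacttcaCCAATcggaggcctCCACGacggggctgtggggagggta
Creld2 (chr15:88819500-88819558, plus strand): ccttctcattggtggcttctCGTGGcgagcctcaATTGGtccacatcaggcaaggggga
Derl3 (chr10:75893222-75893280, plus strand): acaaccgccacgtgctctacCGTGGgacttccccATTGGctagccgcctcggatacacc
Pdia6 (chr12:17266471-17266529, plus strand): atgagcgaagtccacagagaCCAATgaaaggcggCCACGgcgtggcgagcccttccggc
Dnajc3 (chr14:118937807-118937865, plus strand): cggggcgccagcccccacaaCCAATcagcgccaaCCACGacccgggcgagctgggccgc
Syvn1 (chr19:6046512-6046570, plus strand): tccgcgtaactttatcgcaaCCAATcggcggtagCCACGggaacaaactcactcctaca
Calr (chr8:84847055-84847113, minus strand): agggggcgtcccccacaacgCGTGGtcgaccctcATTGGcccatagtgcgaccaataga
Hsp90b1 (chr10:86705513-86705676, minus strand): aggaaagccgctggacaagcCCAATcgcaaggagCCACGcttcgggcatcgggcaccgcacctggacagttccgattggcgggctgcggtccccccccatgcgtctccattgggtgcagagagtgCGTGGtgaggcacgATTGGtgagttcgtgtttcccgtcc
Canx (chr11:50325780-50325838, minus strand): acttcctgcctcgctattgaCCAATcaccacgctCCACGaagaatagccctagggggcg
The log2 changes were -0.64 for Hspa5, -0.57 for Creld2 and for Derl3, -0.43 for Hsp90b1, which holds the element at 2 places, -0.35 for Pdia6, -0.30 for Syvn1, -0.28 for Calr, -0.27 for Dnajc3 and -0.10 for Canx. Of the elements searched in other lists, the sterol element TCACNCCAC was found in Hmgcs1 of 19 sterol genes (1.05% of all promoters) and the FOXO element GTAAACA in Trim63 and Txnip of 17 insulin genes (3.17%). The heat shock element (GAA, TTC and GAA, each 2 bases apart) was found in Hspd1 and Hspe1 of 16 heat shock genes (0.466%) and the PPAR element (AGGTCA repeated 1 base apart) in none of 19 PPARA genes (0.0335%). Hspd1 and Hspe1 share the same stretch (chr1:55088039-55088096), read on opposite strands, so it is counted for both.

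Of 20 cytosolic and mitochondrial heat shock genes, 9 fell and none rose (7 against ZT24 alone), where 804 of all 13448 genes fell. With the median-of-ratios scaling 15 of them fell, where 1583 of all genes fell. Chordc1, an HSP90 co-chaperone, was 15.7, 12.5, 13.8 and 15.7 TPM at ZT4 against a lowest of 24.3, a median of 28.6 and a highest of 34.7 TPM, without overlap (-0.94 ± 0.10, adjusted p 7.45e-10). Dnaja1 changed by -0.60 ± 0.09, Stip1, which joins HSP70 to HSP90, by -0.46 ± 0.08 and the constitutive HSP70 gene Hspa8 by -0.44 ± 0.11. Hspa8 was not called against ZT24 alone (-0.26 ± 0.13, adjusted p 0.213). The cold-inducible RNA-binding genes moved the other way. Cirbp (chr10:80165985-80172786) was 56.5, 55.7, 63.3 and 51 TPM against a lowest of 19.954, a median of 24.6 and a highest of 32.3 TPM (1.16 ± 0.12, adjusted p 7.45e-10). Rbm3 was 52.9, 56.9, 71.1 and 57.6 TPM against a lowest of 39.1, a median of 48.3 and a highest of 54.7 TPM, overlapping, and its change of 0.31 ± 0.09 was not called against ZT0 alone (adjusted p 0.0557), without ZT4 mouse 3 (0.135) or without the adipose-rich libraries (0.0568).

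Lists for making RNA and protein held calls in both directions, and of all genes 10.9% rose and 5.98% fell. Under the median of ratios the falls among all 13448 genes went from 804 to 1583, so a larger count of falls under it is not particular to these lists. Of 28 ribosome biogenesis genes, 9 fell and Rrs1 rose. Against ZT24 alone, and likewise without the adipose-rich libraries, 5 fell and none rose, while under the median of ratios 12 fell, and 11 against ZT24 alone. The changes were -0.66 ± 0.10 for Rrp12, -0.46 ± 0.09 for Heatr1, -0.44 ± 0.08 for Nop2 and -0.42 ± 0.08 for Nolc1. Of 22 SR and hnRNP splicing factors, 5 rose, such as Hnrnpd (0.36 ± 0.06) and Hnrnpdl (0.36 ± 0.08), and 6 fell, such as Tra2a (-0.58 ± 0.10) and Srsf3 (-0.28 ± 0.07). The falls numbered 3 against ZT24 alone and 9 under the median of ratios, and 3 rose without the adipose-rich libraries. Among 33 ATF4 targets and cytosolic aminoacyl-tRNA synthetases 1 rose and 4 fell, a count that went to 2 and 11 under the median of ratios and to 1 and 1 against ZT24 alone, and the most abundant members, Slc3a2 (0.31 ± 0.12) and Shmt2 (-0.01 ± 0.10), were not called. Of 20 immediate early genes, 7 rose and 2 fell, against 10.9% and 5.98% of all genes. Zfp36, which promotes mRNA decay, was 33.4, 38.2, 42.9 and 38.4 TPM against a lowest of 24.2, a median of 25.9 and a highest of 29.7 TPM, and Dusp6, a phosphatase of ERK, was 51.2, 48.7, 63.3 and 51.1 TPM against a lowest of 34.8, a median of 38.8 and a highest of 40.8 TPM. Both were without overlap, as were Ier2 (0.55 ± 0.13) and Maff (0.71 ± 0.19), the latter not called without ZT4 mouse 3 (adjusted p 0.0612).

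Glucocorticoid receptor targets gave no common direction, with 2 of 15 higher and 2 lower, against 10.9% and 5.98% of all genes. Klf9, a factor induced by glucocorticoids and by the clock, rose to 142, 127, 152 and 139 TPM from a lowest of 79.1, a median of 88 and a highest of 98.3 TPM (0.65 ± 0.08, adjusted p 2.15e-07). Errfi1, an inhibitor of EGF receptor signalling, changed by 0.41 ± 0.13 (adjusted p 0.0251), and this call was lost under the median of ratios (0.0526), against ZT0 alone (0.093), without ZT4 mouse 1 (0.174) and without the adipose-rich libraries (0.0837). Sgk1 (-0.99) and Tsc22d3 (-0.78) fell, and neither was called against ZT24 alone (adjusted p 0.122 and 0.098).

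The lists of salt, water and drug transport held 2, 1 and 1 calls, and 16.9% of all genes were called. Of 24 genes of sodium, potassium and chloride transport 2 fell, Sgk1 and Kcnj1 (-0.35), the apical potassium channel ROMK. Fxyd2, an abundant member of the list, was 1387, 1690, 1469 and 1275 TPM against a lowest of 1259, a median of 1369 and a highest of 1702 TPM, overlapping, and was not called (0.02 ± 0.07). Among 15 genes of water, urea and osmolyte handling Slc6a6, the taurine transporter, rose (0.34), a call lost against ZT24 alone (adjusted p 0.0778). Aqp2, the collecting duct water channel, was 202, 296, 411 and 516 TPM against a lowest of 221, a median of 305 and a highest of 612 TPM, with wide overlap, and was not called (0.00 ± 0.33), nor was Aqp1 (0.03 ± 0.11). Of 17 organic ion and drug transport genes only Nat8f5 was called (-1.09), and it was not called against ZT24 alone (adjusted p 0.0539). The urate carrier Slc22a12 (0.06 ± 0.10) and the organic anion carrier Slc22a8 (0.21 ± 0.13) were not called. The medians of the salt, water and drug lists were 0.02, 0.01 and 0.03, and -0.01, -0.02 and -0.00 with the median-of-ratios scaling.

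Mineral and glucose genes held single large movers, and of all genes 10.9% rose and 5.98% fell. Of 19 genes of phosphate, calcium and vitamin D handling 3 rose: Cyp24a1, the vitamin D receptor Vdr (0.40) and Slc20a2, a sodium-phosphate carrier, which was 35.3, 31.4, 37.7 and 33.1 TPM against a lowest of 24, a median of 25.7 and a highest of 27.2 TPM (0.41 ± 0.05). The proximal phosphate carriers Slc34a1 (0.19) and Slc34a3 (0.25) were not called. Of 14 genes of gluconeogenesis and ammonia production 1 rose and 3 fell. G6pc (chr11:101367561-101377903) was 834, 652, 554 and 607 TPM at ZT4 against a lowest of 1070, a median of 1387 and a highest of 1638 TPM, without overlap and with a change of -1.04 ± 0.18 (adjusted p 4.62e-05). Got1, the cytosolic aspartate aminotransferase, changed by -0.28 ± 0.07, while Pck1, which encodes phosphoenolpyruvate carboxykinase, was not called (-0.02).

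Interferon response genes differed inside the reference group. Of 25 genes 8 were lower at ZT4 than at ZT0/24 and none higher (5.98% and 10.9% of all genes). Against ZT24 alone, however, 1 was lower and 1 higher, and 18 of the 25 were lower at ZT24 than at ZT0 (0.424% of all genes). Ifit3, an interferon-induced RNA-binding protein, was 50.3, 108, 128 and 100.5 TPM at ZT4, 189 ± 39.4 TPM at ZT0 and 72.4 ± 3.09 TPM at ZT24 (SD, n = 4). Its difference was -0.34 ± 0.31 against ZT0/24 and 0.33 ± 0.36 against ZT24 alone, neither called. Igtp, an interferon-inducible GTPase, was 63.6, 94.8, 93.6 and 93.5 TPM at ZT4 against a lowest of 37.1, a median of 62.1 and a highest of 153 TPM and was not called (0.34 ± 0.34). Of the 8 lower genes Cmpk2 alone (-0.69) was also lower against ZT24, and Irf7 was the gene higher against ZT24. Summed blood markers ran the other way, with their lowest values at ZT0, and their part in the result was not tested.

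With food present, the same 4 h of light moved most of these genes the other way. Under DRF, 2206 genes rose (16.4%) and 2001 fell (14.9%) between ZT0/24 and ZT4, in mice not shared with the NRF comparison. Of the 1464 genes that rose under NRF, 868 fell under DRF, which was 59.3% of the first list and 43.4% of the second. Of the 804 genes that fell under NRF, 542 rose under DRF, 67.4% and 24.6%. Only 20 genes rose in both and 19 fell in both. The change differed between regimens in 5048 genes (37.5%), 20.5% of all genes being higher and 17% lower under NRF. This balance turned with the scaling, from 54.7% of the calls higher to 46.0% under the median of ratios (2609 higher and 3063 lower), and without NRF ZT4 mouse 3 the counts were 2349 and 2365. All 24 ER chaperone genes rose under DRF, as did 18 of 20 heat shock genes and 21 of 29 sterol genes, and 22 of 26 PPARA genes fell.

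The largest differences among genes called under NRF with a mean of at least 10 TPM were those of Angptl4, Cyp24a1, Pdk4, Nat8f6 and Gm38481. Angptl4 was 7.36 ± 1.88 TPM at DRF ZT4 and 36.9 ± 31.3 TPM at NRF ZT4 (SD, n = 4), and its change differed by 4.57 ± 0.51 (adjusted p 1.02e-09). Pdk4 differed by 3.70 ± 0.40 and Cyp24a1 by 3.76 ± 0.70. Under NRF the lowest group means of Angptl4 and Pdk4 were at ZT0 (4.25 and 22.7 TPM). Under DRF their highest were at ZT20, 4 h before lights on (92.9 and 311 TPM). Such differences therefore hold the levels from which each regimen started as well as the change to ZT4, and the part of each was not tested. Cyp24a1 had a difference of -0.60 ± 0.50 under DRF, which was not called. Nat8f6 rose by 2.59 ± 0.21 and Gm38481 by 2.10 ± 0.24 under DRF, differences of -3.59 ± 0.30 and -3.33 ± 0.33. Cirbp changed by -1.26 ± 0.12 under DRF where it rose under NRF.

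**Figure D4:**
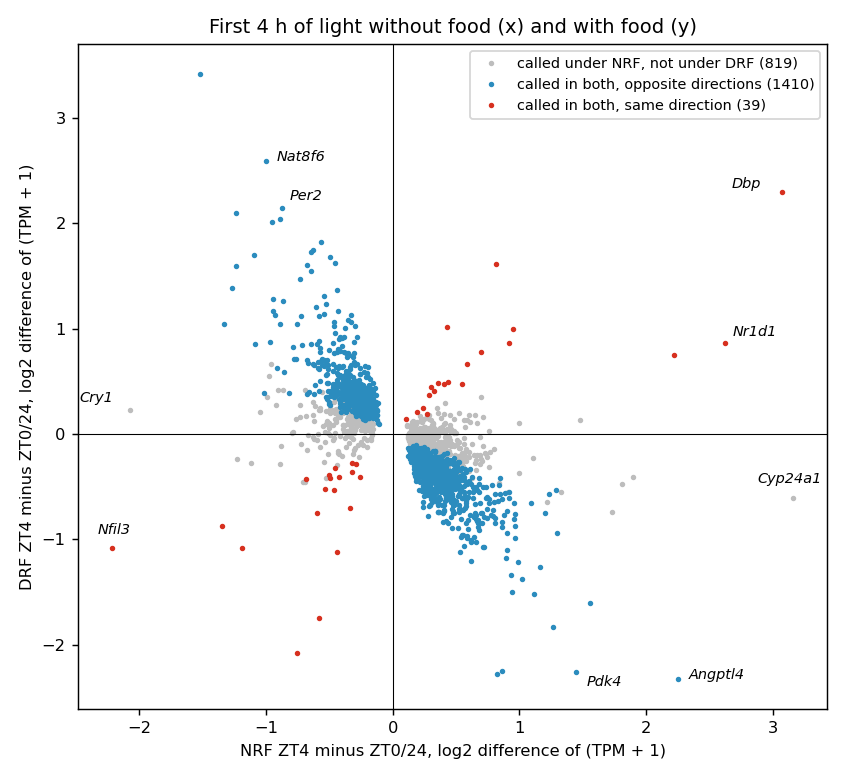
Log2 difference of (TPM + 1) between ZT4 and ZT0/24 under NRF (x axis, light without food) and DRF (y axis, light with food) for the 2268 genes called under NRF, 1 point a gene; the contrasts share no mice. Most points called in both lie in the upper left and lower right, where the directions are opposite (1410 genes), and the 39 in the other corners include Dbp, Nr1d1 and Nfil3.

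The 39 genes called in the same direction under both regimens held 10 clock genes: Dbp, Nr1d1, Nr1d2, Tef, Per3, Cry2 and Hlf rose and Arntl, Npas2 and Nfil3 fell. Ppard also fell under both (-1.35 ± 0.14 and -0.87 ± 0.14). The others, named here after their values were seen, included the connexin genes Gjb2 (0.70 and 0.77) and Gjb6 (0.95 and 0.997), Ypel2 (-0.58 and -1.75) and 4 interferon-inducible genes of the Ifi200 family, such as Ifi204 (-0.46 and -0.53). None of these 4 was called under NRF against ZT24 alone, where the difference for Ifi204 was -0.03.

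The dark hours after food was withdrawn were compared last. Between ZT12 and ZT16 under DRF, 697 genes rose (5.18%) and 1129 fell (8.4%). Of the 1464 NRF rises, 175 rose in the dark window (12.0% and 25.1% of the 2 lists) and 239 fell (16.3% and 21.2%), so that shared calls ran in both directions. Of the 804 NRF falls, 79 fell (9.83% and 7.0%) and 67 rose (8.33% and 9.61%). The difference between the windows was called in 2201 genes (16.4%). Of all genes 11.6% were higher and 4.74% lower in the NRF window, so that 71.0% of the calls were higher, and 49.2% under the median of ratios.

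Igfbp1, Depp1, Pdk4 and Angptl4 were among the 5 largest changes shared with the dark window. Igfbp1 rose by 2.18 ± 0.22 in the dark window, from 16 ± 5.11 to 73.1 ± 6.79 TPM (SD, n = 4), and its difference from the NRF window was -0.28 ± 0.29 (adjusted p 0.583). Depp1 rose by 2.56 ± 0.49, Pdk4 by 2.43 ± 0.33 and Angptl4 by 1.95 ± 0.42. No difference from the NRF window was called for Depp1 (adjusted p 0.442), Pdk4 (0.124) or Angptl4 (0.79). Igfbp1 and these genes were chosen as called in the same direction in both windows, so the lack of a called difference is no result. In this window 5.18% of all genes rose and 8.4% fell. Of 26 PPARA genes 3 rose, Pdk4 and Angptl4 among them, and none fell (median 0.08). Of the insulin and FOXO genes 8 rose and 3 fell, and 7 sterol genes fell. By contrast, 17 of 24 ER chaperone genes rose in the dark window where 15 fell under NRF, and the difference was called in 19. Hspa5 differed by -1.48 ± 0.20 (adjusted p 4.89e-07). G6pc rose by 1.03 ± 0.21 and Lonrf3 by 0.94 ± 0.13, both opposite to their falls under NRF. The counts of the 18 lists in the 3 windows are drawn side by side.

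**Figure D5:**
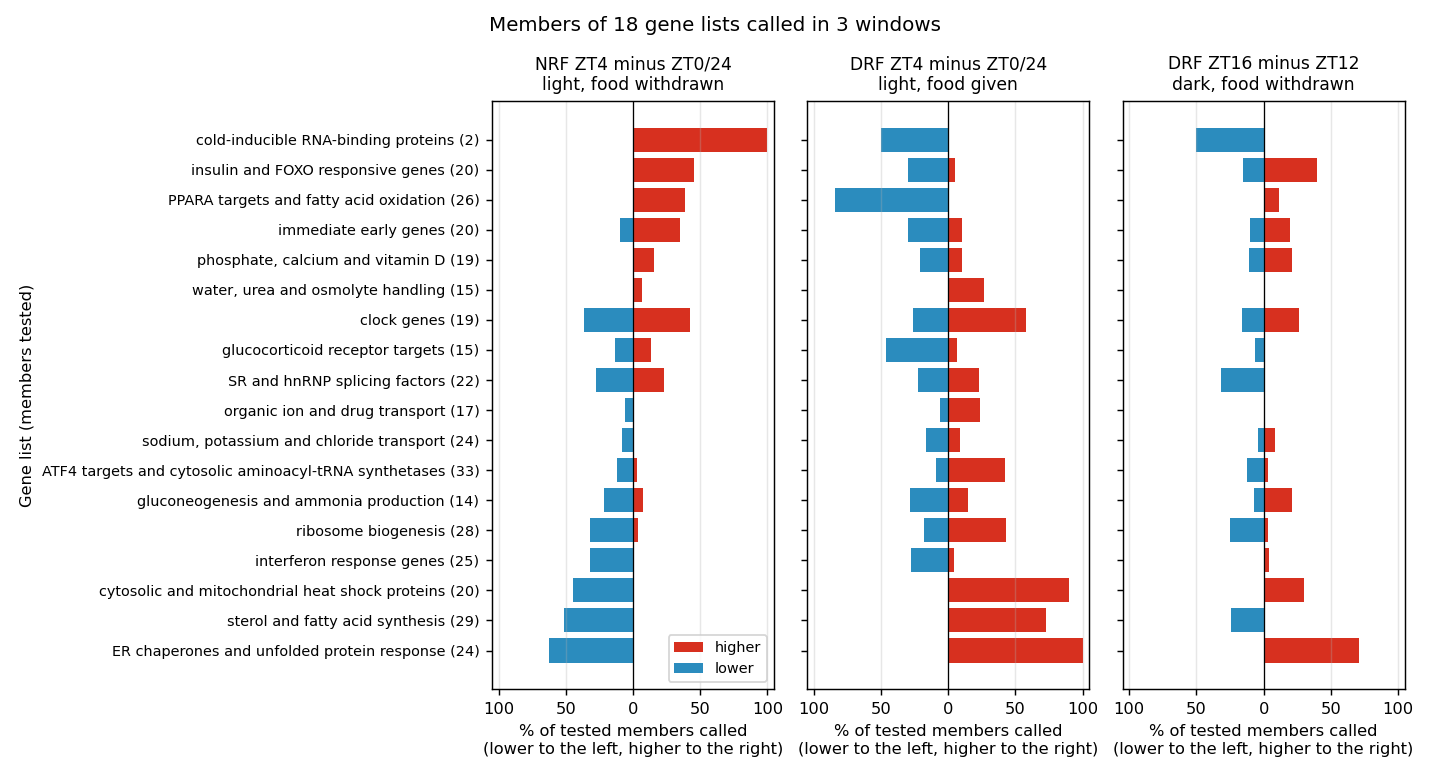
Share of the tested members of 18 gene lists called higher (right, red) or lower (left, blue) in 3 windows of 4 h, as a percentage; numbers in brackets give the members tested. ER chaperone, heat shock and sterol genes were lower in NRF light and higher in DRF light, ER chaperones were also higher in the DRF dark window, and sterol genes were lower in both windows without food.

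Over the rest of the NRF day, ZT4 was an early point of many of these changes. Of 32 named genes that rose, 5 had their highest group mean at ZT4 and 17 at ZT8. Angptl4 reached 97.8 TPM at ZT8, Cyp24a1 186 TPM at ZT8, Txnip 898 TPM at ZT8 and Nr1d1 198 TPM at ZT8. Dbp was far from its highest mean of 234 TPM at ZT12. Igfbp1 had its highest mean at ZT4 (88.4 ± 20.2 TPM). Of 32 named genes that fell, 8 had their lowest mean at ZT4, among them Cry1, Per2 and Nat8f6, and 6 at ZT8. Arntl went on to 0.65 TPM at ZT12 and Npas2 to 0.533 TPM at ZT12.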

How the data were processed

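Libraries were taken from the 56 kidney samples by the labelled regimen and time. The submitters' processing notes name HISAT2, Bowtie2 and RSEM and the builds mm10 and GRCm38.p6; roles and annotation are not given in the sources used here. The authors named the deposited values TPM, but the values behaved as a log2 score, log2(1 + scaled reads) divided by gene length, which differs from the linear TPM that the design had assumed. Reads were therefore recovered at GENCODE M21 or searched lengths (98.6% of 17027 genes; in genes with whole reads 99.6% of the values above 0 were whole within 0.05 reads, and other genes had reads in steps of 2 decimals, like estimated counts). TPM was rebuilt from these reads and lengths, so levels rest on the assumed length. Effective library sizes were 24.8 to 28.9 M. Genes with a mean of at least 1 TPM were tested as log2(TPM + 1) with limma 3.58.1 in R 4.3.3 (trend, all 14 groups); Kap, Atp1b1 and Cyp4a10 were among 35 genes counted but not tested. The script was tested on simulated data. Members and gene lists were chosen with earlier results of these data known. Named genes were the 10 largest rises and falls (mean of at least 10 TPM, no overlap, called against ZT24 too), all clock genes, up to 4 per other list (or the 2 most abundant), and the 5 largest differences from, or shared changes with, each DRF window. A median-of-ratios scaling, other filters, pseudocounts and tests, a replicate block and libraries left out were tried. Promoters came from RefSeq, with an entry for 59 of the 78 named genes. The NRF ZT24 library with no number was mapped to its group only. Some members of the lists and named genes are counted but not reported here by name.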

Additional observations from a re-analysis of the deposited data

Results flagged for a closer look

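The change between ZT0/24 and ZT4 differed between NRF and DRF in 5048 genes, and it differed between the NRF light window and the DRF dark window in 2201 genes, both by the limma test of the difference itself. The NRF minus DRF differences of the genes named for this were 4.57 for Angptl4, 3.76 for Cyp24a1, 3.70 for Pdk4, -3.59 for Nat8f6 and -3.33 for Gm38481 on the log2 scale.

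For the named genes reported here the 4 values at NRF ZT0, ZT4 and ZT24 were examined, 222 sets of values in which the same 12 libraries recur. In 15 of the sets 1 library lay far from the other 3 by Dixon's criterion, which chance gives in about 1 of 20. At ZT4, mouse 1 was high for Arntl (13.3 TPM, others 7.61 to 8.22) and Tfec (12.6 TPM, others 8.7 to 8.97) and low for Igtp (63.6 TPM, others 93.5 to 94.8) and Creld2 (32.1 TPM, others 40.9 to 42.6). Mouse 2 of ZT4 was low for Cpt1a (280.3 TPM, others 412.8 to 430.8) and high for Manf (43.3 TPM, others 33.6 to 35.0). At ZT0, mouse 4 was high for Per1 (12.7 TPM, others 6.43 to 7.12), Rora (14.4 TPM, others 12.2 to 12.4) and Gm38481 (65.6 TPM, others 49.9 to 52.0) and low for Slc22a8 (710.0 TPM, others 941.5 to 995.5). At ZT24, mouse 1 was high for Pdk4 (37.7 TPM, others 22.9 to 24.7), Hspa5 (456.4 TPM, others 371.4 to 384.1), Bhlhe40 (84.4 TPM, others 71.3 to 72.0) and Sdf2l1 (51.5 TPM, others 48.0 to 48.6), and mouse 3 was low for Per2 (6.15 TPM, others 6.84 to 6.94).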

How the results depend on the processing

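The calls for the NRF change numbered 2268 and moved beyond 1.5 times with a fold minimum (232 genes of at least 1.5-fold) and with ZT24 alone as reference (1455). A fit of only the groups compared called 1567 genes for the NRF change, 1029 higher and 538 lower. With the fold minimum the difference between regimens fell to 1670 genes and the difference from the DRF dark window to 640. ZT24 and ZT0 differed in 98 genes, in 49 with a mean of at least 5 TPM, in 63 with only the groups compared and in 60 without the adipose-rich libraries. Leaving out 1 library at a time gave 1536 to 2399 genes for the NRF change (lowest without ZT4 mouse 3), 4626 to 5287 for the regimens, 1825 to 2285 for the dark window and 60 to 87 for ZT24 against ZT0 (60 without ZT0 mouse 3). The cause was not tested. Without the 3 adipose-rich libraries, an alternative chosen after seeing the data, 1529 genes were called for the NRF change. Same-numbered libraries did not deviate together (correlations -0.31 to 0.24), so the numbers were not taken to pair the mice; with the replicate block and without the library that has no number, 2091, 5013, 2122 and 70 genes were called. None of the named genes with a call changed direction under the alternatives run, and under the median of ratios 77 of 78 kept their side of the threshold. Genes with a mean under 1 TPM were not tested.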

Other observations

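Gene families outside the lists, picked here after their values were seen and so given without a test of the family, held further calls. Of all genes tested, 10.9% rose and 5.98% fell, 6.88% and 3.94% against ZT24 alone, and the median change was 0.03. Of 25 genes of the major histocompatibility complex (symbols starting H2-, with B2m), 13 (52.0%) rose between ZT0/24 and ZT4 under NRF and 1 fell, with a median change of 0.51, and 10 rose against ZT24 alone. H2-K1, a classical class I gene, went from a mean of 319.8 to 515 TPM, H2-Ab1, a class II gene, from 237 to 402 TPM, and B2m, the shared light chain, from 2408 to 3518 TPM. H2-Ab1 was not called against ZT24 alone (limma adjusted p 0.071). Of the other class II genes, H2-Aa (0.0826), H2-Eb1 (0.0581) and H2-DMb2 (0.0652) were not called against ZT0/24. H2-DMb1 was called against ZT0/24 but not ZT24 alone, and H2-DMa, H2-Oa and H2-Ob were called against both. Under DRF 8 of the 25 fell and 1 rose over the same hours (14.9% and 16.4% of all genes). Some H2 genes, chiefly of class I, are close copies of each other, so reads may be shared among those. Of 11 genes of the Ifi200 family 7 (63.6%) fell and 1 rose, and against ZT24 alone 2 fell.

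Of 32 autophagy genes 11 (34.4%) rose and 3 (9.38%) fell, 11 and 1 against ZT24 alone, and the family's median change was 0.03. Gabarapl1, a ubiquitin-like protein of the autophagosome, went from 997 to 1527 TPM, Wipi1 from 14 to 23.7 TPM, and the kinase gene Ulk1 from 36.5 to 51.4 TPM. Of 41 genes of amino acid and amine transporter families 8 (19.5%) rose and none fell, and 6 rose against ZT24 alone. Slc6a19, the apical carrier of neutral amino acids in the proximal tubule, went from 129.8 to 312 TPM, and Slc7a7 and Slc7a9, subunits of basolateral and apical carriers, changed by 0.67 and 0.57.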
